A study of Mus musculus with 2 samples.

Results

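The mitochondrial ribosomal protein genes are the nuclear genes whose symbols begin with Mrpl (large subunit) or Mrps (small subunit) followed by a number. All protein-coding genes with such a symbol were taken, which gave 78 of the 17859 annotated mouse genes counted in these data, 49 for the large subunit and 29 for the small subunit. The tissue was gastrocnemius, the large fast muscle of the calf, from male B6CASTF1/J mice (the F1 hybrid of C57BL/6J and CAST/EiJ) at 4 days of age, with no treatment named. There was 1 group, and each of 2 libraries of long-read RNA sequencing started from 2 µg of total RNA. Both libraries carry the same donor entry but separate biosample entries, and it is therefore unknown from the labels whether different mice were used. With n = 2 and 1 group no test between conditions was possible, and a sign-flip permutation cannot go below p = 0.5.

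Mitochondria keep their own ribosome, which translates the few membrane proteins of the respiratory chain that mitochondrial DNA encodes. Its ribosomal RNAs come from mitochondrial DNA, whereas every protein of it is encoded in the nucleus, made in the cytosol, imported and assembled onto the RNA in the matrix. The large subunit holds the peptidyl transferase centre and the exit tunnel, and the small subunit binds the mRNA and decodes it. Skeletal muscle depends on this machine for oxidative metabolism, and inherited defects in several of its proteins cause disease of heart and muscle. Symbols do not always give the place of the protein: structures place Mrps30 and Mrps18a in the large subunit, and Mrps36 is now regarded as a part of the 2-oxoglutarate dehydrogenase complex. The genes are grouped here by symbol.

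Replicate 1 held 998659 counts on annotated mouse genes and replicate 2 held 1026257. A level is a count per 1000000 of those counts (CPM), so 1 count is worth 1.00 CPM in replicate 1 and 0.974 in replicate 2. Each count stands for about 1 read over a transcript, and levels were therefore not divided by length. The tissue label fitted its markers: 10 skeletal muscle genes held 11.5% and 13.5% of the counts, and Alb and Umod, markers of liver and kidney, were at 0 in both libraries, where a count of 0 allows up to 3. The libraries differed in other ways. The epidermal list (5 genes) had 4 counts in replicate 1 and 869 in replicate 2. The Schwann cell list had 1447 and 3570, the adipocyte list 126 and 307, and the erythroid list 211 and 347. Of the brown adipocyte list, Cidea had 13 and 33 counts, while Ucp1 had none in either library. The fibroblast list went the other way in sum, with 36893 and 25668 counts, most of them on Col3a1 and Col1a1. Of its 6 genes, these 2 passed the gene-by-gene test given below as lower in replicate 2. Dcn (814 and 969 counts) and Lum (144 and 252) passed it as higher. The macrophage list had 122 and 156 counts. The endothelial list had 389 and 433, a rise carried by Cldn5 (214 and 294). Its other genes had fewer counts in replicate 2: Pecam1 77 and 70, Kdr 57 and 37, and Cdh5 41 and 32. Of the 10 skeletal muscle genes, 5 passed the gene-by-gene test as higher in replicate 2 and 4 as lower. In such bulk tissue, fewer cells of a type and less RNA per cell cannot be told apart.

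All 78 genes were counted in both libraries. Counts per gene ran from 9 to 123 in replicate 1 and from 17 to 146 in replicate 2. Together the genes held 4018 counts in replicate 1, a share of 0.402% (exact Clopper-Pearson 95% interval 0.390 to 0.415%), and 5282 counts in replicate 2, a share of 0.515% (0.501 to 0.529%). These intervals hold counting error only, and they do not overlap. The mean was 0.459 ± 0.0794% (SD, n = 2).

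The genes kept to a narrow band of levels. The median of the mean levels was 52.8 CPM, against 21.2 CPM over the 12662 protein-coding genes counted in both libraries. The SD of log2 mean CPM was 0.72 among the 78 genes, 2.11 among protein-coding genes and 1.37 among 83 cytosolic ribosomal protein genes, whose median was 165 CPM. Those 83 were taken by symbol, in a way that also admits paralogs of ribosomal protein genes. How far such paralogs widen the spread of the 83 was not tested. The 90th percentile lay 3.62-fold above the 10th, compared with 42.3-fold for protein-coding genes and 9.21-fold for cytosolic ribosomal protein genes. In all, 10 genes had a mean above 100 CPM, 59 lay between 30 and 100 CPM and 9 lay under 30 CPM. Across the 78 genes, log2 CPM in the libraries correlated with a Pearson r of 0.894 and a Spearman rho of 0.910, given as a description since the genes share both libraries.

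Large subunit genes gave 2509 and 3287 counts in replicates 1 and 2, and small subunit genes gave 1509 and 1995. The large subunit thus took 62.4% (60.9 to 63.9%) of the counts in replicate 1 and 62.2% (60.9 to 63.5%) in replicate 2, close to its 62.8% of the genes. The shares did not differ between libraries beyond counting error (Fisher's exact test, two-sided, p = 0.846). With Mrps30 and Mrps18a moved to the large subunit and Mrps36 left out, a grouping chosen after seeing the data, the large subunit share was 67.3 ± 0.649% (SD, n = 2). The median over large subunit genes was 42.1 CPM in replicate 1 and 53.6 CPM in replicate 2, and over small subunit genes 48.1 and 63.3 CPM.

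**Figure D1:**
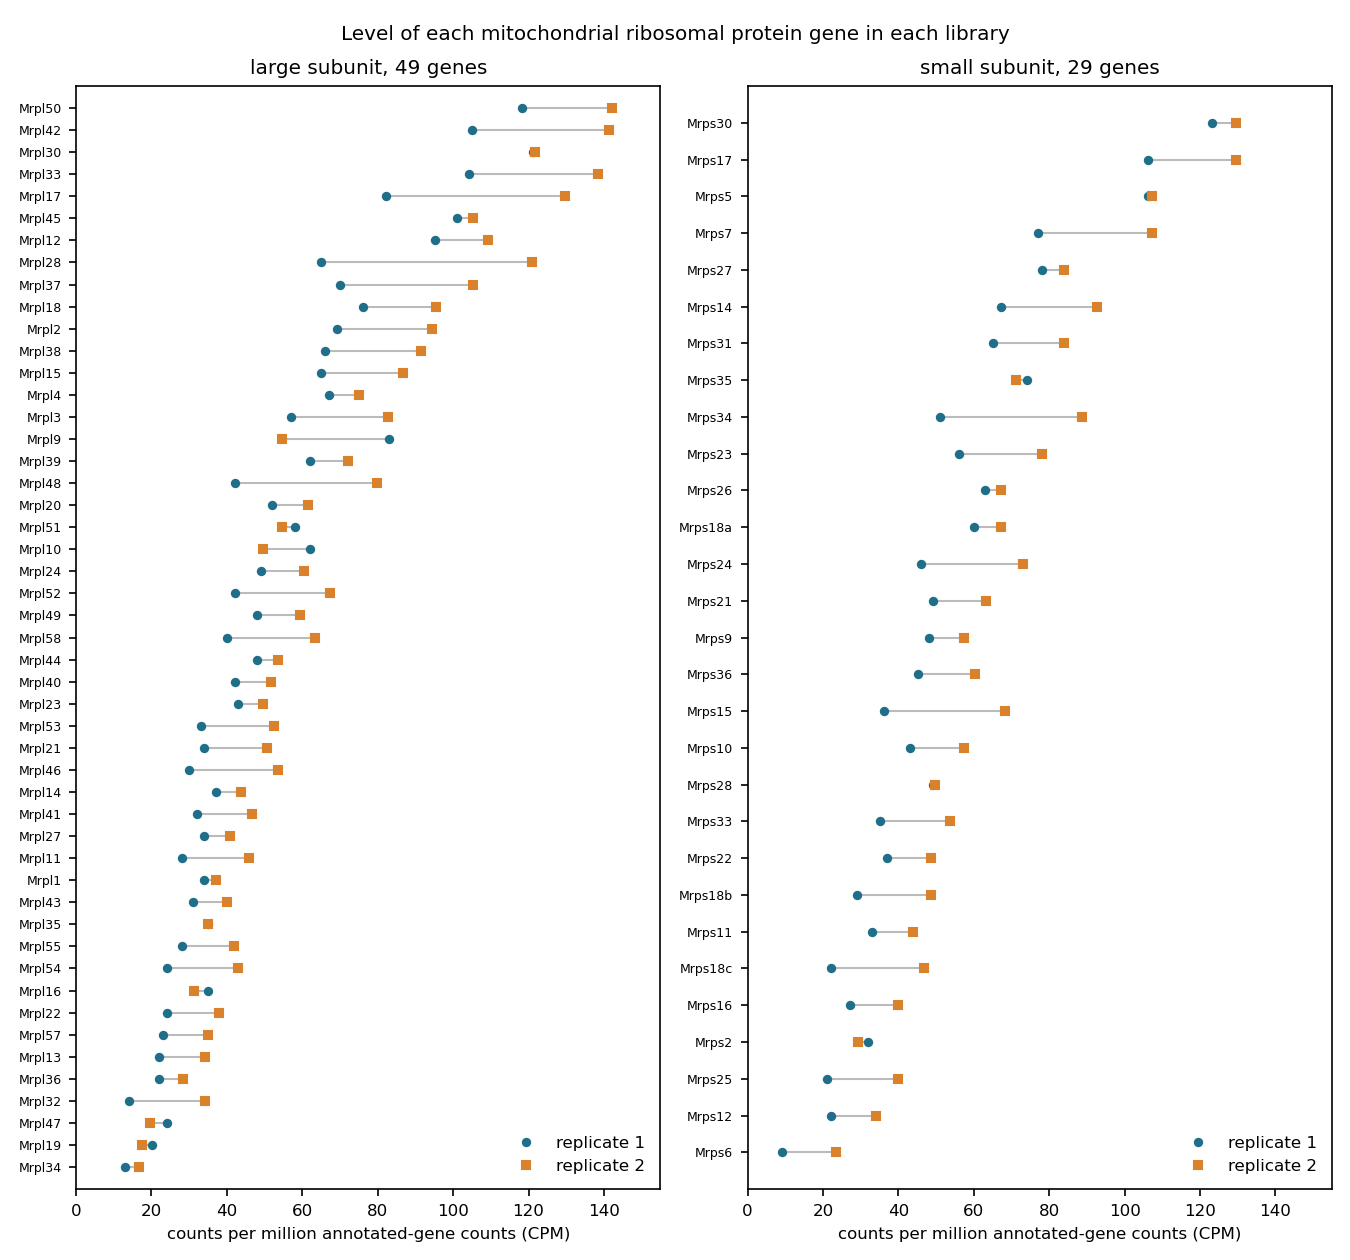
Level of each of the 78 genes in CPM (x axis), large subunit left and small subunit right, ordered by the mean of the libraries, with circles for replicate 1, squares for replicate 2 and a grey line joining them. Levels run from Mrpl34 and Mrps6 at the bottom to Mrpl50 and Mrps30 at the top, and in 70 genes the square lies to the right.

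Among large subunit genes, Mrpl50, which encodes a protein with no bacterial counterpart (4:49512596-49521093 in mm10, minus strand), had the highest level, with 118 and 146 counts in replicates 1 and 2 (130 ± 17.1 CPM, n = 2). Mrpl42, also of a protein that bacteria lack, had 105 and 145 counts (123 ± 25.6 CPM). Mrpl30 had 121 and 125 counts (121 ± 0.452 CPM), though about 51.2% of them lay on genomic models, described with the transcript classes. Mrpl33, which encodes one of the smallest proteins of the subunit, had 104 and 142 counts (121 ± 24.2 CPM). These 4 genes lay within 10 CPM of each other, less than the gap between the libraries in 3 of them, so their order is not settled.

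Next came Mrpl17 with 82 and 133 counts (106 ± 33.6 CPM) and Mrpl45 with 101 and 108 (103 ± 2.90 CPM). The product of Mrpl45 lies at the tunnel exit and holds the ribosome to the inner membrane. Mrpl12, the stalk protein that recruits translation factors, had 95 and 112 counts (102 ± 9.90 CPM). Mrpl28 had 65 and 124 counts (93.0 ± 39.4 CPM), the widest gap of these 8 genes.

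The lowest levels in the large subunit belonged to genes of proteins that bacteria also have. How many of the higher genes also encode such proteins was not counted. Whether level goes with a bacterial counterpart was therefore not tested. Mrpl34 had 13 and 17 counts (14.8 ± 2.51 CPM), the lowest of all 78, and Mrpl19 had 20 and 18 (18.8 ± 1.76 CPM). Mrpl47 had 24 and 20 counts (21.8 ± 3.21 CPM). Mrpl32, whose product is cut to its mature form by the m-AAA protease before it joins the ribosome, had 14 and 35 counts (24.1 ± 14.2 CPM). The highest gene lay 8.80-fold above the lowest.

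In the small subunit group, Mrps30 (13:118378381-118387252, minus strand) led with 123 and 133 counts (126 ± 4.55 CPM). Mrps17 had 106 and 133 counts (118 ± 16.6 CPM), and Mrps5, at the mRNA channel, had 106 and 110 (107 ± 0.738 CPM). Mrps7, a protein of the head of the subunit, followed with 77 and 110 counts (92.1 ± 21.3 CPM). Mrps27, a pentatricopeptide repeat protein, had 78 and 86 (81.0 ± 4.03 CPM). Then came Mrps14 with 67 and 95 counts, Mrps31 with 65 and 86, and Mrps35 with 74 and 73.

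The lowest gene of the small subunit was Mrps6, with 9 and 24 counts (16.2 ± 10.2 CPM). Mrps12, which encodes the protein of the decoding site that governs accuracy, had 22 and 35 counts (28.1 ± 8.54 CPM). Mrps25 had 21 and 41 counts (30.5 ± 13.4 CPM) and Mrps2 had 32 and 30 (30.6 ± 1.99 CPM). At this depth the order among these last 3 genes was not detectable.

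Mammals carry 3 genes in place of the single bacterial gene of ribosomal protein S18, and their products sit at different places in the ribosome. Mrps18a had 60 and 69 counts (63.7 ± 5.06 CPM), Mrps18b 29 and 50 (38.9 ± 13.9 CPM) and Mrps18c 22 and 48 (34.4 ± 17.5 CPM). In replicate 1 Mrps18a had more counts than the others together, and in replicate 2 it had fewer.

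The libraries were then set against each other gene by gene with Fisher's exact test (two-sided), for the 11027 genes that reached 10 counts in sum, and p-values were adjusted over all of them by Benjamini-Hochberg with a threshold of 0.05. This compares 2 libraries of 1 group, not conditions, and it holds counting error only. Of the 78 genes, 70 were higher in replicate 2 (89.7%), compared with 48.7% of all genes tested. The median log2 ratio of replicate 2 over replicate 1 was 0.40 for the 78 genes (0.35 for the large and 0.41 for the small subunit) and -0.04 for all genes tested. Of the 78 genes, 7 passed the adjusted test as higher in replicate 2, beside 5.25% of all genes tested that did, and 0 passed as lower, beside 4.49%. In either direction that is 9.0% of the set and 9.74% of all genes tested, so the share of called genes was near the background, and all 7 lay in the same direction. Without adjustment, 24 genes (30.8%) had p under 0.05 and were higher, beside 10.6% of all genes, and 1 was lower.

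The 7 genes came from both subunits. Mrpl28 (17:26123500-26126613, plus strand) had 65 counts in replicate 1 and 124 in replicate 2, a log2 ratio of 0.89 (95% interval 0.45 to 1.35, adjusted p = 0.00116 by Fisher's exact test). Mrpl48, a protein of the central protuberance, had 42 and 82 counts (0.92, adjusted p = 0.0103 by the same exact test). Mrpl17 had a log2 ratio of 0.66 and Mrpl32 one of 1.25. In the small subunit, Mrps34 had 51 and 91 counts (0.79), Mrps15, which binds the ribosomal RNA, 36 and 70 (0.91), and Mrps18c a log2 ratio of 1.07. Their adjusted p by the exact test lay between 0.0156 and 0.0425. Spread between samples was allowed for in edgeR's exact test at a preset biological coefficient of variation (BCV) of 0.1. This test called 0 of the 78 genes, and 10 had an unadjusted p under 0.05. The share over all genes is not given for it, so these 2 counts are not set against a background.

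Of the 8 genes lower in replicate 2, Mrpl9 was the only one with an unadjusted p under 0.05, with 83 and 56 counts (log2 ratio -0.60, 95% interval -1.12 to -0.10, adjusted p = 0.121 by Fisher's exact test). The largest ratio of the set was that of Mrps6 (1.33), which did not pass the test (adjusted p = 0.104 by the exact test). For 54 of the 78 genes the 95% interval of the ratio held 0.

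Transcript length moved with the library ratio. Length here is that of the most counted annotated transcript of a gene. Over the 10516 genes tested that had one, the log2 ratio had a Spearman rho of -0.40 with length. Among the 78 genes the rho was -0.25. The median length was 1302 bases for the 78 genes and 2754.5 for the genes tested. Among transcripts under 1000 bases, all 26 mitochondrial ribosomal protein genes were higher in replicate 2 (median log2 ratio 0.48), as were 80.6% of the 939 genes of that length (0.43). From 1000 to 2000 bases the medians were 0.36 for 27 genes of the set and 0.26 for all. From 2000 to 3000 bases they were 0.41 for 9 genes and -0.04 for all, and from 3000 bases on 0.10 for 16 genes and -0.24 for all. Mrpl33 stood in the class from 2000 to 3000 bases by an annotated model of 2741 bases, and its ratio (0.41) was the median there. Annotated models held only 6 and 4 of its 104 and 142 counts, so its length class is uncertain. The 83 cytosolic ribosomal protein genes, with a median length of 830 bases, had a median log2 ratio of 0.37, and 35 of them (42.2%) passed the test as higher, beside 5.25% of all genes tested. The epidermal, Schwann cell and adipocyte lists were also higher in replicate 2, and the fibroblast list was lower in sum. The part of length and of these lists in the ratios of the mitochondrial ribosomal protein genes was not tested.

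**Figure D2:**
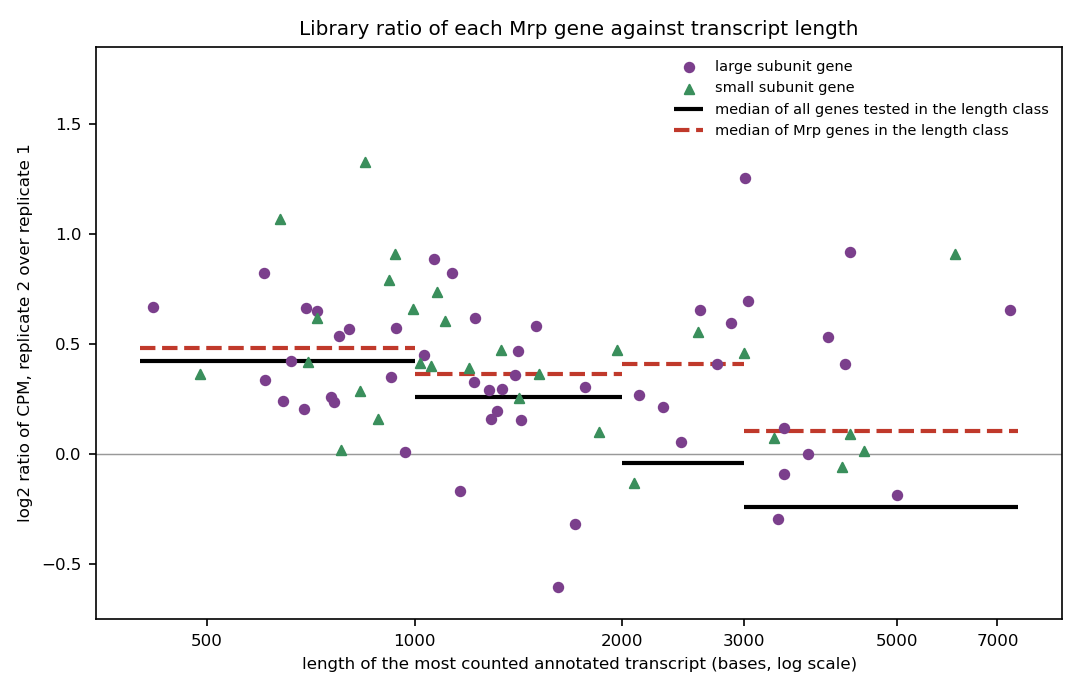
Log2 ratio of CPM, replicate 2 over replicate 1, for each of the 78 genes (y axis). The x axis (log scale) gives the length in bases of the gene's most counted annotated transcript. Circles mark the large and triangles the small subunit. Black lines give the median of all genes tested in 4 length classes (0.43, 0.26, -0.04 and -0.24) and dashed red lines that of the genes of the set (0.48, 0.36, 0.41 and 0.10).

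The wider machinery was counted through lists of genes that act on or around this ribosome. Of 5 mitoribosome proteins without an Mrp symbol, all were counted, with a median of 61.2 CPM, near that of the set. The adjusted test called 1 of them (20%), beside 9.74% of all genes tested. Gadd45gip1, a large subunit protein also called CRIF1, had 94 and 171 counts (130 ± 51.3 CPM, log2 ratio 0.82, adjusted p = 0.000229 by Fisher's exact test). Aurkaip1 had 68 and 85 counts and Ptcd3 62 and 62.

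Assembly and rRNA modification factors were lower in level, with a median of 26.0 CPM over 31 genes. Their median log2 ratio was 0.08, and 2 of the 30 tested (6.67%) passed as lower in replicate 2, beside 4.49% of all genes tested, and 0 as higher. Both are proteases: Lonp1, the matrix protease, had 217 and 143 counts (log2 ratio -0.64), and Afg3l2, a subunit of the m-AAA protease that matures Mrpl32, had 191 and 121 (-0.70). Spg7, its partner subunit, had 125 and 126 counts.

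Translation factors (15 genes) had a median of 32.7 CPM and a median log2 ratio of -0.23. Only Lrpprc, which stabilises mitochondrial mRNAs, passed the test, as lower in replicate 2, with 156 and 88 counts (-0.86). That is 6.67% of the list, beside 4.49% of all genes tested that passed as lower. Oxa1l, the insertase at the tunnel exit, had 79 and 69 counts, and Tufm, the elongation factor that delivers tRNAs, 69 and 77.

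Of 22 genes for mitochondrial aminoacyl-tRNA synthetases and their helpers, 1 passed as lower, Aars2, with 78 and 41 counts (-0.96). That is 4.55% of the list, beside 4.49% of all genes tested that passed as lower. The highest were Kars (132 and 148 counts) and Gars (119 and 134), each of which serves the cytosol as well, and Iars2 (89 and 66). Of 7 tested genes for mitochondrial DNA upkeep and transcription, Ssbp1, the single-stranded DNA binding protein, passed as higher (98 and 148 counts, 0.55). The polymerases Polg (62 and 31, -1.03) and Polrmt (52 and 23, -1.20) passed as lower. In either direction that is 42.9% of these 7 genes, beside 9.74% of all genes tested. As lower it is 28.6%, beside 4.49%. The mitochondrial rRNAs themselves had 6 and 2 counts in sum. How well the libraries capture these RNAs was not tested, so these counts do not give their level in the tissue. In these lists 8 of 79 genes tested (10.1%) were called, near the 9.74% of all genes tested: 2 were higher (2.53%) and 6 lower (7.59%). The most counted annotated transcripts of the 6 lower genes were 2951 to 7837 bases long, and those of the 2 higher genes 1188 and 2494. Over all genes tested that had an annotated transcript, the ratio fell with length (Spearman rho -0.40). The part of length in the ratios of these lists was not tested. No difference between these counts and the 7 and 0 of the ribosomal proteins was tested.

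Reads on these genes mostly followed annotated transcripts. Transcript models of a gene fall into 5 classes. Known models are annotated, and ISM (incomplete splice match) models hold a part of such a chain of introns. NIC models join known splice sites in a way that the annotation lacks, NNC models use a splice site that it lacks, and genomic models overlap the gene without a spliced match. Known models took 85.8% of the counts of the 78 genes in replicate 1 and 86.6% in replicate 2, compared with 72.4% and 75.4% over all protein-coding genes and 88.4% and 88.0% over cytosolic ribosomal protein genes. ISM models took 3.24% and 2.99%, compared with 9.89% and 9.48% over protein-coding genes and 9.35% and 10.2% over cytosolic ribosomal protein genes.

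A few genes gave most of the NNC counts of the large subunit and most of the genomic counts of the set. Mrpl33 alone gave 97 of the 163 NNC counts in replicate 1 and 136 of 213 in replicate 2. Without it the large subunit had 2.74% and 2.45% of its counts on NNC models, next to 2.98% and 3.01% for the small subunit. Of 133 and 137 genomic counts on the 78 genes, Mrpl30 and Mrpl24 gave 84 and 85. Mrpl30 had 62 and 64 of its counts on genomic models and Mrpl24 had 22 and 21. Without both genes the genomic share was 1.27% and 1.02%. On Known, NIC and NNC models alone, the mean level of Mrpl30 was 67.8 CPM.

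**Figure D3:**
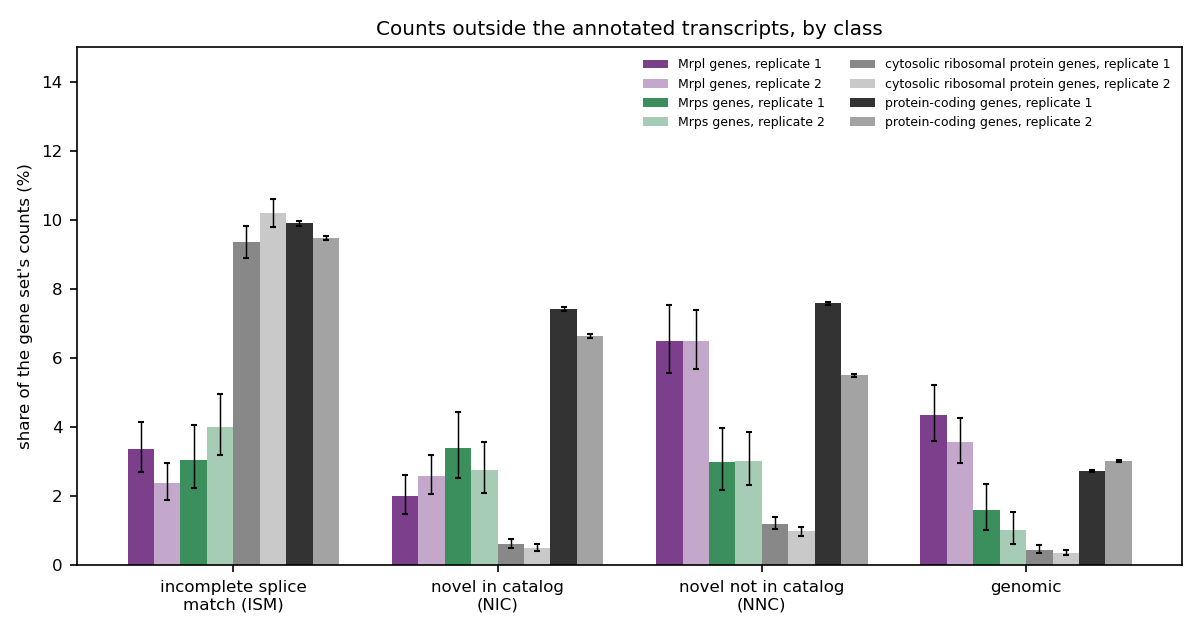
Share of counts (y axis, %) on ISM, NIC, NNC and genomic models for large subunit (Mrpl), small subunit (Mrps), cytosolic ribosomal protein and all protein-coding genes, with replicate 1 in the darker and replicate 2 in the lighter bars and exact 95% binomial intervals. The ISM bars of the Mrpl and Mrps genes end between 2.37% and 4.01%, below the 9.35 to 10.2% of the other sets, and the NNC bars of the Mrpl genes, which include Mrpl33, exceed those of the Mrps genes (2.98% and 3.01%).

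Isoforms were compared by intron chain, the ordered set of introns of a model, matched between libraries by position. Spliced counts are those on Known, NIC or NNC models, and 71 genes had 20 or more of them in each library. In 69 of them (97.2%) the same chain led in both libraries, compared with 95.4% of all 5351 genes of that depth. The leading chain was annotated in 70 (98.6%, compared with 95.1%), and all 70 are of the protein-coding type. It took a median of 92.2% of the spliced counts in replicate 1 and 93.2% in replicate 2, where all genes of that depth had 86.7% and 86.1%. In 36 genes (50.7%) it took at least 90% in both libraries, compared with 36.4% of all genes of that depth. By Fisher's exact test with Benjamini-Hochberg adjustment, the leading share differed between libraries in 0 of 71 genes, beside 0.449% of all genes. Without adjustment, 4 of the 71 genes had p under 0.05 by that test, beside 304 of the 5351 genes of that depth.

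A total of 469 chains was counted over the 78 genes, 158 of them annotated. Of the 311 unannotated chains, 220 had a single count over both libraries and 56 were seen in both libraries. Annotated chains of the nonsense-mediated decay type had 8 and 5 counts, and those of the retained intron type 42 and 51, which is 1.12% and 1.02% of the spliced counts.

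**Figure D4:**
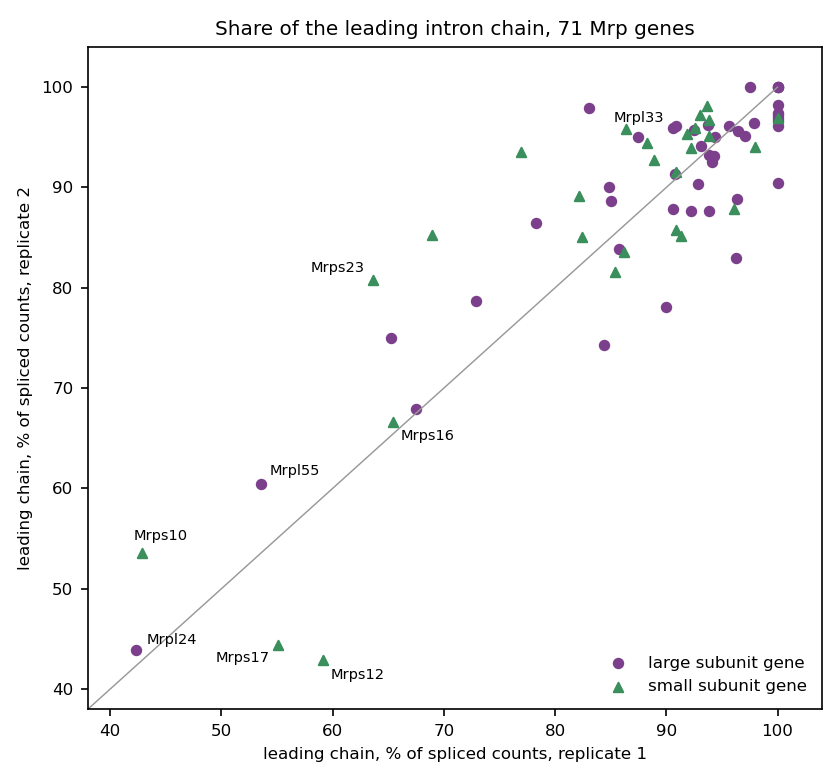
Share of spliced counts on the leading intron chain in replicate 1 (x axis, %) and replicate 2 (y axis, %) for the 71 genes with at least 20 spliced counts in each library, with circles for the large and triangles for the small subunit and a line of equality. Most genes sit above 80% in both libraries, while Mrpl24, Mrps10, Mrps12 and Mrps17 lie at 42.3 to 59.1%.

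The exception to the annotation was Mrpl33 (5:31596935-31664384, plus strand). Its annotated coding transcript joins the first exon through a microexon of 19 bases (5:31614603-31614621) to the third exon. The chain that led here held 91 of 104 spliced counts in replicate 1 (87.5%, 79.6 to 93.2%) and 135 of 142 in replicate 2 (95.1%, 90.1 to 98.0%). In it the first exon ran 8 bases further, to position 31614030, and was joined straight to the third exon at 31616381, without the microexon. All models with this junction together had 92 and 135 counts. Models with the microexon had 0 counts in both libraries, and so had models that joined the first to the third exon at their annotated sites, where a count of 0 allows up to 3.

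The sequences at this junction are shown because they carry the difference. In the first line the microexon is in capitals, in the second the 8 bases that the counted chain adds to the first exon, and in the third the start of the annotated intron with the same 8 bases in capitals.
Mrpl33-201, annotated: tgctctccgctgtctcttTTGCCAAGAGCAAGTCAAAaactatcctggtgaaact
Mrpl33, counted chain: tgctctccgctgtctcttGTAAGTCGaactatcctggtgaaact
Mrpl33, start of the intron: GTAAGTCGgtctgaggcgg
The 8 added bases begin with GT and are followed by GT, so both the annotated and the shifted site have that dinucleotide. The 8 bases share a run of 5 bases, AAGTC, with the microexon, at a different place in each. Set against the first 8 bases of the microexon, position by position, they share 2 bases, and against the last 8 they share 0. The counted chain is 11 bases shorter than the annotated one, which is not a multiple of 3. The deposited models give exon positions and not the bases of the reads, so whether the reads held the 19 bases was not tested.

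**Figure D5:**
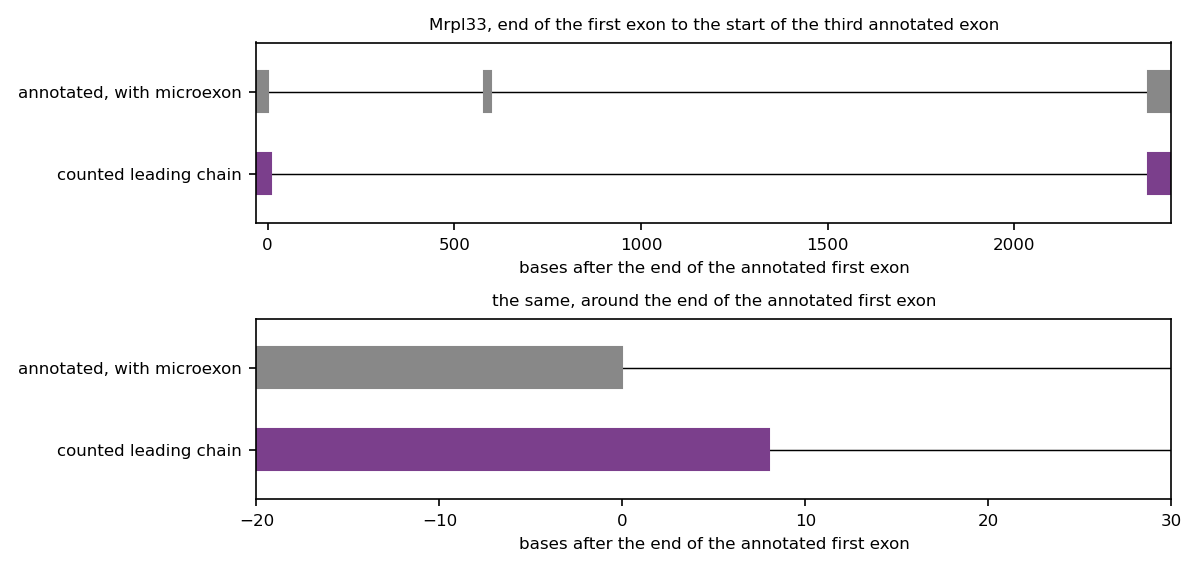
Exons (boxes) and introns (lines) of Mrpl33 in the annotated transcript with the microexon (grey) and in the leading counted chain (purple), against bases after the end of the annotated first exon, over the whole span (top) and enlarged (bottom). The counted chain has no box at the 19-base microexon, and its first exon ends 8 bases later.

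There were 4 genes with a second chain of at least 20% of the spliced counts in both libraries (5.63%, compared with 12.7% of all genes of that depth). Of these, Mrps10 had a choice that alters the protein. Its transcript Mrps10-203 had 18 counts in replicate 1 and 30 in replicate 2 (42.9% and 53.6%) and Mrps10-204 had 19 and 18 (45.2% and 32.1%). A different chain thus led in each library, with intervals that overlap (27.7 to 59.0% and 39.7 to 67.0% for Mrps10-203). The transcripts differ by 3 coding bases (17:47372573-47372575, plus strand) between neighbouring 3′ splice sites, shown in capitals between 18 bases of exon on each side.
Mrps10-203: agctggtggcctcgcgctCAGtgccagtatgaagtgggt
Mrps10-204: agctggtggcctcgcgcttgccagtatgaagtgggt
The extra bases are CAG, which itself ends in AG, and the coding lengths are 603 and 600 bases.

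In the other 3 genes the chains differed outside the coding part or in a noncoding transcript. Mrpl24, a protein at the tunnel exit, had 11 and 18 counts on Mrpl24-202 and 7 and 14 on Mrpl24-201. These transcripts differ by 123 bases in a 5′ splice site or first exon and encode the same 648 bases. Mrps12 had 13 and 15 counts on Mrps12-201 and 8 and 19 on Mrps12-204, so its leading chain also changed between libraries, and the coding part of 417 bases is the same. Mrps16 had 17 and 26 counts on Mrps16-201 and 9 and 13 on Mrps16-202 (34.6% and 33.3%). The latter is a noncoding transcript with another 5′ splice site or first exon.

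Further annotated variants of coding sequence fell below that share in at least 1 library. Mrps36 had 31 and 52 counts on Mrps36-203 and 8 and 4 on Mrps36-202, which lacks 6 coding bases (13:100739196-100739201, minus strand). Mrpl55 had 15 and 26 counts on its leading transcript and 4 and 6 on Mrpl55-205, which holds 21 more coding bases (11:59204535-59204555, plus strand). Mrpl58, the gene of a peptidyl-tRNA hydrolase built into the ribosome, had 36 and 50 counts on Mrpl58-209 and 2 and 12 on Mrpl58-202, which lacks 87 coding bases. All 3 changes are multiples of 3. The variable bases of the shorter cases are in capitals.
Mrps36-203: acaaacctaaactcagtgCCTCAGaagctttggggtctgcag
Mrps36-202: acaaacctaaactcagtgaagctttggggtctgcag
Mrpl55-205: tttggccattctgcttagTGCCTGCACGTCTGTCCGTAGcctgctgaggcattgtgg
Mrpl55-201: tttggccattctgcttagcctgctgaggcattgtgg
As in Mrps10, the extra bases end in AG, the letters that close an intron, directly before the first base of the shorter exon. The choice of Mrps36, Mrpl55 and Mrpl58 among the other variants was made after their values were seen.

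Mrps17 was likewise divided among several chains. Its leading transcript Mrps17-201 held 54 and 55 counts (55.1% and 44.4%), and 4 further chains held 7 to 15 counts each in every library. Of these, the annotated ones encode the same 360 bases. Intron retention inside or beside the coding part was seen as annotated models in Mrps26 (Mrps26-201, 8 and 10 counts), Mrps24 (2 and 9) and Mrpl57 (6 and 7).

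Many of the genes lay close to another start site, a feature that the choice of symbols did not use. In 33 of 78 (42.3%), 24 of 49 in the large and 9 of 29 in the small subunit, another protein-coding gene started within 1000 bases on the opposite strand, head to head, with the 5′ ends apart or overlapping, according to the annotation. The same held for 16.6% of the 10560 protein-coding genes with at least 10 counts in sum and for 10.9% of all protein-coding genes. This is a description, without a test. One pair lay within the set: Mrpl46 (30 and 55 counts) and Mrps11 (33 and 45) start head to head with 412 bases of overlap. A few partners are named here as examples, picked after the list of pairs was seen, and whether any kind of gene is more frequent among the 33 partners was not tested. Mrps12 lies beside Sars2, the mitochondrial seryl-tRNA synthetase (38 and 40 counts), and Mrpl43 beside Twnk, the helicase of mitochondrial DNA (26 and 30). Mrpl36 and Mrpl47 lie beside the complex I genes Ndufs6 (68 and 63) and Ndufb5 (149 and 219). Mrpl32 lies beside the proteasome gene Psma2 (100 and 176), and Mrpl49 beside Fau, a gene of the cytosolic ribosome (100 and 154). Of the 33 partner entries, 31 were counted in at least 1 library and 28 in both. Mrpl46 and Mrps11 enter here as partners of each other, so that pair is counted from both sides. In 22 of the 31 entries the partner had the lower mean level. The median level of the set also exceeded that of protein-coding genes (52.8 against 21.2 CPM).

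Promoter sequences of 300 bases (250 before and 50 after the start) from RefSeq on GRCm38.p6 matched 69 of the 78 genes. The ETS motif CCGGAAG, searched on both strands, was found in 37.7% of them, compared with 1750 of 8329 protein-coding genes with at least 10 counts in sum and 9.93% of all 27025 genes. It occurred in 15 large and 11 small subunit genes. The NRF1 motif, GCGCA and GCGC with 1 free base between them, named for a factor that drives many nuclear genes of mitochondria, was found in 18.8%, compared with 12.4% and 5.19%. The core of the YY1 motif, AGATGGC, was found in 17.4%, compared with 8.72% and 7.31%. The CCAAT box (CCAAT) stood at 39.1%, compared with 42.9% and 41.1%, and the TATA box (TATAAA) at 7.25%, compared with 8.66% and 15.7%. None of these motifs holds another, and a match is a description of letters only.

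Stretches of 100 bases, the nearest before the RefSeq start that are free of annotated exons, are printed 5′ to 3′ for 4 genes with a match, in capitals, to show how the motifs lie. Mrpl17 (7:105811100-105811199, minus strand) and Mrpl45 (11:97315616-97315715, plus strand) hold an NRF1 match, Mrpl43 (19:45006443-45006542, minus strand) holds 2 ETS matches and Mrps22 (9:98601680-98601779, minus strand) holds 1. These were chosen as clear cases after the search.
Mrpl17: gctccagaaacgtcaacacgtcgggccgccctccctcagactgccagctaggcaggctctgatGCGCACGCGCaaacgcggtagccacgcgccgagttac
Mrpl45: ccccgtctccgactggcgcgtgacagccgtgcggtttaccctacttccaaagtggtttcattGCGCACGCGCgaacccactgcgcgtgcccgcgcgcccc
Mrpl43: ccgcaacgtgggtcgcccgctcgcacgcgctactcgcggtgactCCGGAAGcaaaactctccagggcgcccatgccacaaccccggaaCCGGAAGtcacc
Mrps22: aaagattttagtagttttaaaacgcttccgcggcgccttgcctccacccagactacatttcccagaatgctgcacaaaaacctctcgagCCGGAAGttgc
The stretch ends directly before that start in Mrpl45, Mrpl43 and Mrps22, and 12 bases before it in Mrpl17. Counted from that start, the matches begin 49 bases before it in Mrpl17, 38 in Mrpl45, 56 and 12 in Mrpl43 and 11 in Mrps22.

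Some counts that resemble these genes stood outside the set. The processed pseudogene Mrpl23-ps1 had 21 and 24 counts, while Mrpl23 had 43 and 51, and reads that fit both copies can make the split between them uncertain. Mrpl48-ps had 1 and 1 counts and Mrps36-ps2 0 and 1. Models that use an intron of a member but were assigned to another gene were few, at most 6 counts a library, as for Mrpl53 with the identifier Gm42688 (6 and 6) and Mrps34 with Nme3 (3 and 3).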

How the data were processed

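Long-read RNA-seq was measured in 2 libraries of 4-day gastrocnemius. Per the file headers, the authors deposited raw counts of reads per transcript model and library in TALON format (TALON assigns long reads to annotated or new transcript models), with exon positions on mm10 and GENCODE M21 identifiers. The sources used here name neither platform nor aligner. Library totals were 1066347 and 1100253 counts, of which 998659 and 1026257 lay on annotated mouse genes. The latter were added up by gene, all transcript classes included, and expressed as CPM. Spike-ins and unannotated loci stayed out.

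Ratios used a prior count of 0.5. Libraries were compared with Fisher's exact test (SciPy 1.17.1) for genes with at least 10 counts in sum, adjusted over all 11027 genes. A transcript's length is the annotated one of the most counted annotated transcript. For intron chains, genes needed 20 spliced counts in each library. Fisher's exact test was tested on simulated data with counting error only. That simulation cannot show how the test behaves under further spread between libraries. Alternatives used edgeR 4.0.16 and DESeq2 1.42.0. If the libraries do not come from separate mice, the SD measures technical spread only.

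The members and lists were chosen with earlier results of these data known. Genes named were the 8 highest and 4 lowest of each subunit, those that differed between libraries, those with a leading chain that changed or was unannotated or with a second chain of at least 20%, the Mrps18 genes, and the 3 highest and all called genes of each list. Other names were chosen after their values were seen.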

Additional observations from a re-analysis of the deposited data

How the results depend on the processing

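Of the 54 alternative values computed for the comparisons, 47 stayed close to the main value. Close means a move of no more than the SD for shares and medians, and within 1.5-fold for counts of genes. The SD is over the 2 libraries, or over the genes for the median log2 ratio. With n = 2 a single library always lies within the SD of the mean. Leaving out a replicate therefore could not count as a move for a share or a median level. The count of 7 genes that differed between libraries was 5 to 7 under TMM, DESeq2 size factors, all deposited counts as the denominator, Known, NIC and NNC models only, and minimums of 1 and 50 counts, and was 0 in edgeR's exact test with a preset BCV of 0.1 (10 genes with an unadjusted p under 0.05) and 0 with a BCV of 0.2 (1 gene). The 8 genes called in the surrounding lists became 0 with a BCV of 0.2. For either BCV, the share over all genes is not given here. On Known, NIC and NNC models Mrps34 did not pass (adjusted p = 0.0608 by Fisher's exact test). With a minimum of 1 count, Mrpl32 (0.0678) and Mrps18c (0.0527) did not. The median log2 ratio of the 78 genes stayed between 0.38 and 0.44. The large subunit share was 61.8% on Known, NIC and NNC models, 63.0% without the highest gene of each subunit and 67.3% with the subunits set by structure. It was 62.2 to 62.4% with each replicate left out. At a share of 10%, 11 genes had a second chain in both libraries. Of the 33 named levels, those that moved by over 1.5 times were Mrpl30 on Known, NIC and NNC models (67.8 CPM) and, without replicate 2, Mrpl32 (14.0), Mrps18c (22.0) and Mrps6 (9.01). Depth limited single genes: the interval of the ratio held 0 in 54 of the 78 genes. No paired analysis was possible because the series has 1 group.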
